A study of Homo sapiens with 24 samples.

Results

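ATF4, DDIT3 (which encodes CHOP), ATF3, ATF5, TRIB3, CEBPB, CHAC1, PPP1R15A, SESN2 and DDIT4 are transcription factors and effectors of the integrated stress response. They were chosen by name, with earlier results of these data known. All 10 symbols were matched to an Ensembl ID among the 78724 gene IDs counted. RNA was sequenced from 24 libraries of 2 human biliary tract cancer lines, HuCCT1 (intrahepatic cholangiocarcinoma, grown in RPMI-1640) and OCUG-1 (gallbladder cancer, grown in DMEM). Each line had 4 arms of 3 biological replicates, harvested after 72 h. The vehicle arm received DMSO at no more than 0.1%. Sorafenib was given at 1.25 µM or at 10 µM. In the last arm, called the combination here, 1 µM IACS-010759 was given with the lower sorafenib dose. Sorafenib is a multikinase inhibitor, and IACS-010759 inhibits complex I of the mitochondrial respiratory chain. No arm received IACS-010759 alone. Each line is a single case, and line and medium cannot be told apart.

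In the integrated stress response, several kinases (PERK, GCN2, HRI and PKR) phosphorylate the translation initiation factor eIF2. General protein synthesis then slows while the ATF4 mRNA, which carries upstream open reading frames, is translated more. ATF4 protein raises transcription of genes for amino acid supply and of further regulators, among them CHOP, ATF3 and TRIB3. Respiratory chain inhibition is among the known triggers, through the OMA1-DELE1-HRI relay. Much of the control of ATF4 is translational, so its mRNA level is not a measure of its protein.

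Total counts per library ran from 18238834 to 30693736 in HuCCT1 and from 14388855 to 24019011 in OCUG-1. The 10 genes received between 116 and 33619 reads in a library, and all 10 passed the filter on low counts in both lines. Levels are given as CPM, the count of a gene relative to the library total, scaled by edgeR's TMM factors over all 24 libraries, and a gene was called changed at a Benjamini-Hochberg adjusted p under 0.05 in edgeR's quasi-likelihood test. Biliary epithelial markers had a mean above 10 CPM for 8 of 8 genes in HuCCT1 and 6 of 8 in OCUG-1, where CDH1 was lowest at 1.93 CPM. Above 10 CPM was also 1 of 6 hepatocyte markers in each line, SERPINA1 in HuCCT1 (205 CPM) and FGB in OCUG-1 (37.6 CPM). So were 2 of 5 fibroblast markers in each line, led by COL1A1 at 25.0 CPM in HuCCT1 and 58.1 in OCUG-1. None of 5 immune and 5 endothelial markers passed 10 CPM, the highest being at 4.04. HuCCT1 10 µM replicate 3 and HuCCT1 vehicle replicate 1 stood apart from their arms for several of the 10 genes, and results that rest on them are given with and without them. In bulk RNA, a change in every cell cannot be told apart from a larger change in a share of the cells, nor fewer cells of a type from less RNA per cell.

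The upstream sequences of all 10 genes, whether or not their mRNAs changed, were searched for motifs of ATF, C/EBP and ER stress factors. The search was made with the changes in OCUG-1, given below, already known. All 10 genes had a RefSeq promoter entry (18 windows of 250 bases before a start, GRCh38.p14). Both strands were searched for the core TGATGNAA of the composite C/EBP-ATF element, for the cAMP response element TGACGTCA, for its part TGACG, and for the ER stress response element. The last was read as CCAAT, 9 bases of any kind, then CCACG. The composite core lay in 3.14% of 35116 promoters and, among the 10 genes, in those of ATF3 and CHAC1. The cAMP response element lay in 1.65% of promoters and in that of PPP1R15A. TGACG, which TGACGTCA contains, lay in 21.2% of promoters and in those of ATF4, ATF5, CEBPB and PPP1R15A. The full ER stress response element lay in 0.074% of promoters and in 0 of the 10 genes. With its last base left free, a change made after the DDIT3 window had been read, it lay in 0.282% of promoters and in that of DDIT3. The shares were taken over windows, while a gene was counted when any of its windows held a match. ATF3, ATF5 and CEBPB also had windows without the match named for them. A match is a run of letters, not a measured binding site. For ATF3, CHAC1, PPP1R15A and DDIT3, the stretch around the match to one of the longer motifs is shown 5′ to 3′ on the strand of the gene, with that match in capitals. Matches to TGACG alone, such as the one in the PPP1R15A stretch, are left in lower case, and no stretch is shown for ATF4, ATF5 or CEBPB. They run to the limits of the window or of annotated exons, except that the CHAC1 match lies in an annotated exon of a longer transcript and is shown as a site of 30 bases, where the capitals are the core read on the opposite strand.
ATF3 (chr1:212565157-212565333, plus strand): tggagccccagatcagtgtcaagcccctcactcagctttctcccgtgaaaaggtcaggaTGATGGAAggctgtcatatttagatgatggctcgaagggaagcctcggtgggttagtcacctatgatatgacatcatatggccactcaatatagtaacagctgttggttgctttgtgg
CHAC1 (chr15:40953251-40953280, plus strand): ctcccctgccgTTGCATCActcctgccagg
PPP1R15A (chr19:48872171-48872391, plus strand): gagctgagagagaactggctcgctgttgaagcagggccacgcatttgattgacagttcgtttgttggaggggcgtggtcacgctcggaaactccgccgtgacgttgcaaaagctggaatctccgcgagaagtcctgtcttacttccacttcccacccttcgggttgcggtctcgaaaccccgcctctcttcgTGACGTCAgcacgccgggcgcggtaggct
DDIT3 (chr12:57520518-57520709, minus strand): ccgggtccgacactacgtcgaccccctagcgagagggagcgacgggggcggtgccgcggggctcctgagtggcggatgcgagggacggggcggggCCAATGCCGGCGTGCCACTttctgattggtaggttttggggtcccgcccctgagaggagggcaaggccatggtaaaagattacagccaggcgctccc

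The genes lie on separate loci of GRCh38 (GENCODE v29). The transcription factor genes are ATF4 at chr22:39519695-39522685, DDIT3 at chr12:57516588-57521737, ATF3 at chr1:212565334-212620777, ATF5 at chr19:49928702-49933935 and CEBPB at chr20:50190734-50192689. The effector genes are TRIB3 at chr20:362835-397559, CHAC1 at chr15:40952962-40956519, PPP1R15A at chr19:48872392-48876057, SESN2 at chr1:28259527-28282491 and DDIT4 at chr10:72273920-72276036. DDIT3 is on the minus strand and the others are on the plus strand.

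Without drug, 4 of the 10 mRNAs were lower in OCUG-1 than in HuCCT1 and 1 was higher. Over all genes tested in both lines, 35.6% were called higher and 32.7% lower in OCUG-1 than in HuCCT1. ATF4, the central transcription factor of the response, stood at 722, 949 and 753 CPM in the 3 HuCCT1 vehicle libraries and at 415, 368 and 365 CPM in the OCUG-1 ones, 2.11-fold lower (log2 change -1.08 ± 0.13 SE, adjusted p = 1.8e-08). CHAC1, a glutathione-degrading enzyme, stood at 42.3, 69.9 and 61.9 against 10.4, 7.53 and 8.32 CPM, 6.63-fold lower (log2 change -2.73 ± 0.15 SE, adjusted p = 4.88e-16). For both genes every OCUG-1 library lay below every HuCCT1 library. TRIB3, a pseudokinase that restrains AKT and ATF4 signalling, was 3.90-fold lower (log2 change -1.96 ± 0.17 SE, adjusted p = 4.2e-11). SESN2, a leucine sensor upstream of mTORC1, was 3.88-fold lower (log2 change -1.96 ± 0.23 SE, adjusted p = 1.23e-07). CEBPB, a bZIP partner of ATF4 and CHOP, was 1.40-fold higher (log2 change 0.48 ± 0.15 SE, adjusted p = 0.00735), and this call was lost without HuCCT1 vehicle replicate 1 (0.37, adjusted p = 0.0582). Per kilobase of exon, ATF4 had the highest level of the 10 in both lines, 322 ± 48.9 CPM per kb in HuCCT1 and 152 ± 11.2 in OCUG-1 (SD, n = 3). On the same scale ATF5 was lowest in HuCCT1 at 6.49 ± 0.190 CPM per kb and CHAC1 lowest in OCUG-1 at 4.25 ± 0.711.

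**Figure D1:**
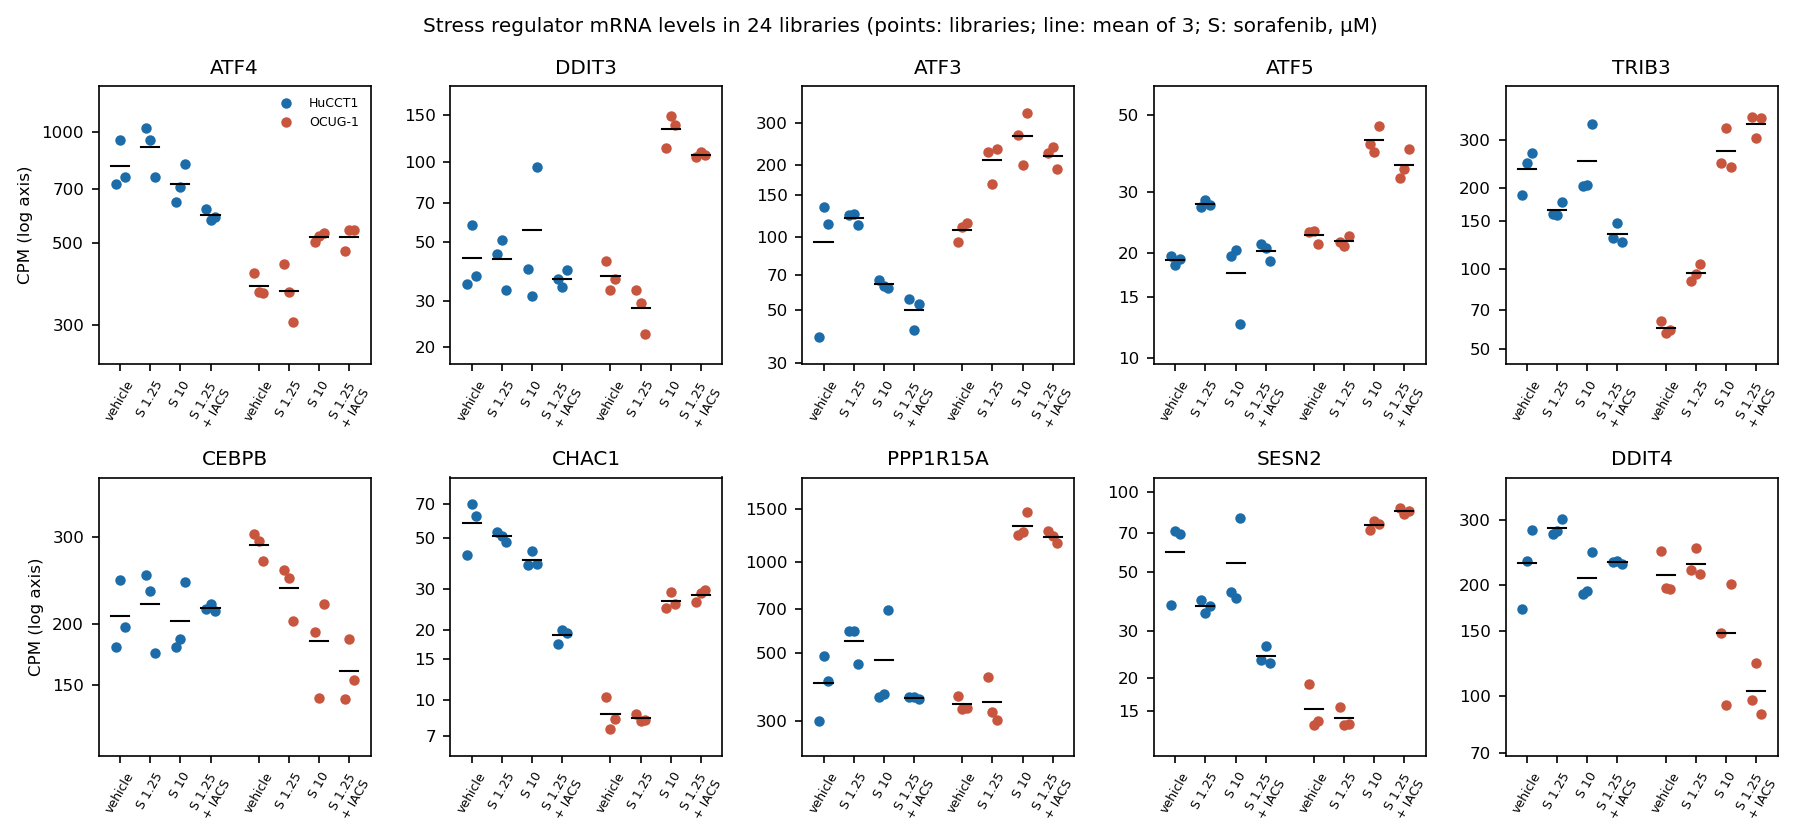
Level of each of the 10 mRNAs in CPM (log axis, its range differing between panels) in all 24 libraries, with points for libraries and lines for the mean of 3. In OCUG-1 the DDIT3, CHAC1, PPP1R15A and SESN2 libraries with 10 µM sorafenib and with the combination lie above all vehicle libraries, while in HuCCT1 the CHAC1 and SESN2 combination libraries lie below all vehicle libraries.

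In OCUG-1 most of the 10 mRNAs rose with 10 µM sorafenib and with the combination. At 10 µM against vehicle 8 rose, CEBPB fell and DDIT4 was not called, where 32.4% of all tested genes rose and 30.7% fell. The median log2 change was 1.53 over the 10 genes and 0.000679 over all genes. Here and below, TMM scaling places the all-gene median near 0, so that median is a reference point and not a measured background. In the combination against 1.25 µM sorafenib alone, arms that differ by the added IACS-010759, 7 rose and 2 fell (CEBPB and DDIT4), with a median log2 change of 1.36 against 0.0630 for all genes, of which 31.4% rose and 26.7% fell. Against vehicle, 8 rose and 2 fell with the combination, where 31.5% of all genes rose and 28.1% fell. The 10 µM and combination arms were set against the same vehicle libraries, so their values are given side by side and not as separate support. The share of counts from mitochondrial genes was lower in the same arms, 5.65 to 6.25% at 10 µM and 4.71 to 6.48% in the combination against 11.1 to 13.6% with vehicle and 9.39 to 13.1% at 1.25 µM, with no overlap. No call on the 10 genes changed in either line when mitochondrial genes were left out of the scaling.

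ATF4 mRNA rose least of the 8. Its libraries stood at 415, 368 and 365 CPM with vehicle, 437, 369 and 305 with 1.25 µM sorafenib, 501, 523 and 531 with 10 µM sorafenib and 476, 542 and 541 with the combination. The 10 µM and combination libraries all exceeded the vehicle and 1.25 µM ones. The change was 1.42-fold higher (log2 change 0.51 ± 0.12 SE, adjusted p = 0.00111) at 10 µM, and 1.52-fold higher (log2 change 0.61 ± 0.12 SE, adjusted p = 0.000282) for the combination against 1.25 µM sorafenib. DDIT3, whose product CHOP is linked to cell death under prolonged stress, stood at 42.3, 32.8 and 36.3 CPM with vehicle, 32.8, 29.3 and 22.5 with 1.25 µM sorafenib, 113, 148 and 138 with 10 µM sorafenib and 104, 108 and 106 with the combination. It was the arms with 10 µM sorafenib and with IACS-010759 that were high, with no overlap with the vehicle arm. DDIT3 was 3.75-fold higher (log2 change 1.91 ± 0.13 SE, adjusted p = 1.15e-09) at 10 µM and 4.06-fold higher (log2 change 2.02 ± 0.14 SE, adjusted p = 1.18e-09) in the combination against 1.25 µM sorafenib. At 1.25 µM against vehicle its log2 change of -0.42 ± 0.14 SE was not called (adjusted p = 0.0535), with a call in 5 of the other settings tried. DDIT3 shares 355 exon bases, 27.2% of its exon length, with MARS1 on the opposite strand, and whether counting used strand is not given in the sources used here. MARS1 (methionyl-tRNA synthetase) rose by 0.57 ± 0.09 SE at 10 µM and by 0.80 ± 0.09 SE in the combination against 1.25 µM sorafenib, both on the log2 scale and both smaller than the DDIT3 changes.

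ATF3, a stress-induced bZIP factor, already differed at the low dose. It stood at 95.9, 111 and 115 CPM with vehicle, 228, 167 and 235 with 1.25 µM sorafenib, 268, 201 and 330.0 with 10 µM sorafenib and 226, 238 and 194 with the combination in OCUG-1. All 9 drug-treated libraries exceeded the 3 vehicle libraries. ATF3 was 1.91-fold higher (log2 change 0.94 ± 0.16 SE, adjusted p = 0.00242) at 1.25 µM and 2.60-fold higher (log2 change 1.38 ± 0.16 SE, adjusted p = 1.43e-06) at 10 µM. Adding IACS-010759 to 1.25 µM sorafenib gave a log2 change of 0.18 ± 0.16 SE, which was not called (adjusted p = 0.355). Between the doses, ATF3 was 1.36-fold higher (log2 change 0.44 ± 0.16 SE, adjusted p = 0.0252), a call lost without 1.25 µM replicate 2 (adjusted p = 0.147), 10 µM replicate 1 (0.0622) or 10 µM replicate 3 (0.191), where the log2 change was 0.29, 0.43 and 0.24. ATF5, a bZIP factor tied to the mitochondrial unfolded protein response, stood at 23.1, 23.2 and 21.3 CPM with vehicle, 21.5, 21.0 and 22.5 with 1.25 µM sorafenib, 41.2, 39.0 and 46.6 with 10 µM sorafenib and 32.9, 34.9 and 39.8 with the combination. Its 1.25 µM libraries overlapped the vehicle ones and both other arms lay above. ATF5 was 1.97-fold higher (log2 change 0.98 ± 0.11 SE, adjusted p = 4.13e-07) at 10 µM and 1.80-fold higher (log2 change 0.85 ± 0.11 SE, adjusted p = 3.5e-06) in the combination against 1.25 µM sorafenib. ATF5 shares 626 exon bases (21.2%) with NUP62 on the opposite strand. The log2 change of NUP62 at 10 µM was -0.15 ± 0.09 SE (adjusted p = 0.185). In the combination against 1.25 µM sorafenib NUP62 was called higher, by 0.23 ± 0.09 SE (adjusted p = 0.0448), less than ATF5.

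CEBPB went the other way in OCUG-1. It stood at 304, 294 and 268 CPM with vehicle, 257, 248 and 203 with 1.25 µM sorafenib, 192, 141 and 219 with 10 µM sorafenib and 141, 186 and 154 with the combination. No 10 µM or combination library reached the lowest vehicle library. CEBPB was 1.49-fold lower (log2 change -0.58 ± 0.15 SE, adjusted p = 0.00221) at 10 µM and 1.70-fold lower (log2 change -0.76 ± 0.15 SE, adjusted p = 0.000224) in the combination against vehicle. Against 1.25 µM sorafenib the combination was 1.36-fold lower (log2 change -0.44 ± 0.15 SE, adjusted p = 0.0152), a call lost without 1.25 µM replicate 1 (-0.38, adjusted p = 0.0536) and when libraries were scaled by their size alone (-0.29, adjusted p = 0.0691). CEBPB shares 231 exon bases (11.8%) with the antisense gene CEBPB-AS1.

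**Figure D2:**
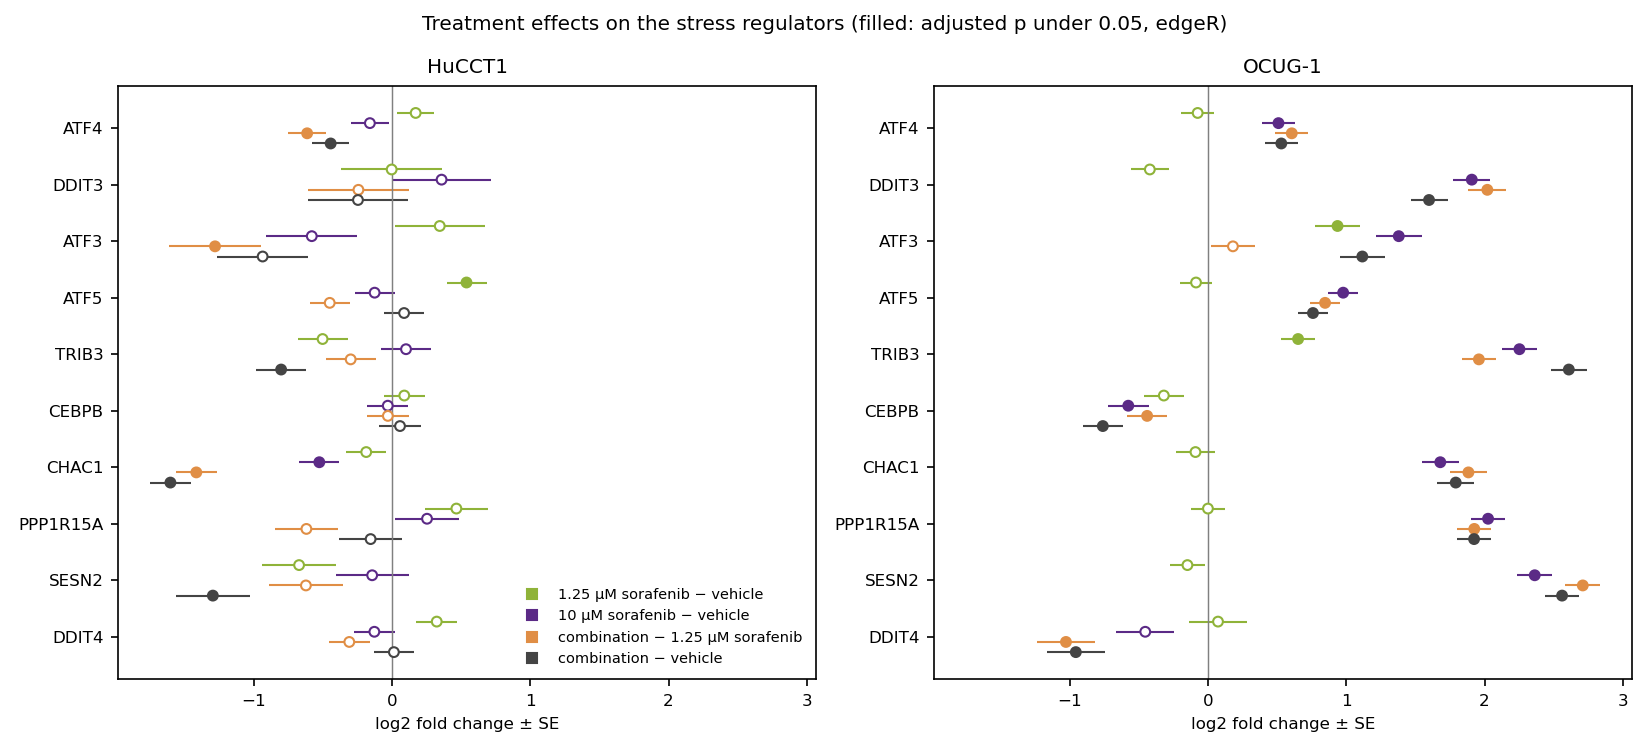
Log2 fold change (x axis, ± SE) of each gene in 4 comparisons per line, with filled points for an adjusted p under 0.05 in edgeR. In OCUG-1 8 genes lie to the right of 0 at 10 µM sorafenib with filled points, against 0 genes in HuCCT1.

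At 10 µM the 3 largest of the rises in OCUG-1 were those of the effector genes SESN2, TRIB3 and PPP1R15A. TRIB3 stood at 63.7, 57.4 and 59.1 CPM with vehicle, 89.7, 95.0 and 104 with 1.25 µM sorafenib, 247, 332 and 238 with 10 µM sorafenib and 367, 305 and 364 with the combination. All 1.25 µM libraries were above all vehicle libraries, and all 10 µM and combination libraries were above both. TRIB3 was 1.57-fold higher (log2 change 0.65 ± 0.12 SE, adjusted p = 0.0035) at 1.25 µM, 4.77-fold higher (log2 change 2.25 ± 0.13 SE, adjusted p = 7.86e-11) at 10 µM and 6.11-fold higher (log2 change 2.61 ± 0.13 SE, adjusted p = 1.91e-11) in the combination against vehicle. SESN2 stood at 18.9, 13.3 and 13.8 CPM with vehicle, 15.6, 13.3 and 13.5 with 1.25 µM sorafenib, 72.0, 77.7 and 75.6 with 10 µM sorafenib and 87.3, 83.1 and 85.2 with the combination. Its combination libraries all exceeded its 10 µM libraries, though both arms were far above vehicle and 1.25 µM. SESN2 was 5.15-fold higher (log2 change 2.36 ± 0.12 SE, adjusted p = 3.58e-11) at 10 µM, and in the combination it was 6.55-fold higher (log2 change 2.71 ± 0.13 SE, adjusted p = 1.81e-11) against 1.25 µM sorafenib. At 1.25 µM alone its log2 change of -0.15 ± 0.13 SE was not called (adjusted p = 0.477).

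PPP1R15A encodes GADD34, the phosphatase subunit that dephosphorylates eIF2 and so closes the loop. It stood at 363, 326 and 331 CPM with vehicle, 417, 320.5 and 302 with 1.25 µM sorafenib, 1228, 1263 and 1466 with 10 µM sorafenib and 1266, 1222 and 1159 with the combination. The vehicle and 1.25 µM libraries overlapped, and the other arms were well above both. PPP1R15A was 4.07-fold higher (log2 change 2.03 ± 0.12 SE, adjusted p = 1.93e-10) at 10 µM and 3.80-fold higher (log2 change 1.93 ± 0.12 SE, adjusted p = 7.55e-10) in the combination against 1.25 µM sorafenib. CHAC1 stood at 10.4, 7.53 and 8.32 CPM with vehicle, 8.75, 8.15 and 8.22 with 1.25 µM sorafenib, 24.9, 29.1 and 26.0 with 10 µM sorafenib and 26.6, 28.9 and 30.0 with the combination, with the same separation into low and high arms. CHAC1 was 3.20-fold higher (log2 change 1.68 ± 0.13 SE, adjusted p = 4.47e-09) at 10 µM and 3.69-fold higher (log2 change 1.88 ± 0.13 SE, adjusted p = 2.02e-09) in the combination against 1.25 µM sorafenib. DDIT4 (REDD1), an inhibitor of mTORC1, was the effector that did not rise. It stood at 248, 196 and 195 CPM with vehicle, 219, 252 and 214 with 1.25 µM sorafenib, 148, 94.7 and 201 with 10 µM sorafenib and 97.6, 122 and 89.5 with the combination. The combination libraries were below all vehicle and 1.25 µM libraries, and the 10 µM libraries were spread from within the combination range (replicate 2) to within the vehicle range (replicate 3). DDIT4 was 2.04-fold lower (log2 change -1.03 ± 0.21 SE, adjusted p = 0.00075) in the combination against 1.25 µM sorafenib. At 10 µM its log2 change against vehicle was -0.46 ± 0.21 SE (adjusted p = 0.0696), and without 10 µM replicate 3 it was called (-0.73, adjusted p = 0.00205). An antisense gene, DDIT4-AS1, shares 847 exon bases (41.2%) with DDIT4.

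At 1.25 µM against vehicle, ATF3 and TRIB3 were the 2 of 10 genes called in OCUG-1, both higher, where 5.92% of all tested genes rose and 4.61% fell. Between the doses, 8 of 10 were higher at 10 µM and 1, DDIT4, was lower, where 31.6% of all genes were higher and 29.0% lower. The DDIT4 difference between doses (-0.53 ± 0.21 SE, adjusted p = 0.0407) lost its call without either of 10 µM replicates 1 and 2 and without each of the 3 libraries with 1.25 µM, with log2 changes of -0.31 to -0.58 and adjusted p of 0.0574 to 0.112.

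In HuCCT1 1 of the 10 mRNAs was called against vehicle at each dose of sorafenib alone. The mitochondrial share of counts was 7.08 to 14.1% with vehicle, 12.5 to 21.8% at 1.25 µM, 8.32 to 11.6% at 10 µM and 10.5 to 12.6% in the combination. At 1.25 µM against vehicle 1 rose and none fell, where 9.98% of all genes rose and 8.5% fell. ATF5 was that gene. It stood at 19.7, 18.6 and 19.2 CPM with vehicle, 27.2, 28.5 and 27.6 with 1.25 µM sorafenib, 19.6, 20.4 and 12.5 with 10 µM sorafenib and 21.3, 20.7 and 19.0 with the combination. The 3 libraries with 1.25 µM were above all 9 others. ATF5 was 1.45-fold higher (log2 change 0.54 ± 0.14 SE, adjusted p = 0.0175) at 1.25 µM, a call lost without vehicle replicate 1 (0.56, adjusted p = 0.0507), without 1.25 µM replicate 2 (0.52, adjusted p = 0.0694) and with libraries scaled by size alone (0.39, adjusted p = 0.0711). NUP62, which overlaps ATF5 on the opposite strand, moved with it, 0.48 ± 0.09 SE on the log2 scale at 1.25 µM (adjusted p = 0.00254) and -0.48 ± 0.09 SE between 10 and 1.25 µM (adjusted p = 0.00138). Its part in the ATF5 counts was not tested. TRIB3 stood at 188, 247 and 268 CPM with vehicle, 159.8, 158 and 177 with 1.25 µM sorafenib, 203, 205 and 346 with 10 µM sorafenib and 129.9, 147 and 125 with the combination. The 1.25 µM libraries lay below all vehicle libraries, though the log2 change of -0.50 ± 0.18 SE was not called (adjusted p = 0.0646). TRIB3 was called lower in 7 of 13 other settings, among them DESeq2 (-0.51, adjusted p = 0.0377), size alone (-0.64, adjusted p = 0.0204) and without vehicle replicate 1 (-0.64, adjusted p = 0.0422). SESN2, with a log2 change of -0.67 ± 0.27 SE (adjusted p = 0.099), was called lower in 3 of 13, which were DESeq2 (-0.68, adjusted p = 0.0344), size alone (-0.81, adjusted p = 0.0368) and without vehicle replicate 1 (-0.92, adjusted p = 0.022).

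At 10 µM against vehicle 0 of the 10 rose and 1 fell in HuCCT1, where 13.0% of all genes rose and 11.2% fell. CHAC1 stood at 42.3, 69.9 and 61.9 CPM with vehicle, 53.2, 51.1 and 48.0 with 1.25 µM sorafenib, 38.1, 44.0 and 38.6 with 10 µM sorafenib and 17.5, 20.1 and 19.5 with the combination. Its 10 µM libraries overlapped the vehicle range through vehicle replicate 1, and the combination libraries were lowest. CHAC1 was 1.44-fold lower (log2 change -0.53 ± 0.14 SE, adjusted p = 0.014) at 10 µM. That call was lost without vehicle replicate 2 (-0.37, adjusted p = 0.0848) or 10 µM replicate 1 (-0.48, adjusted p = 0.0611), and with replicate 3 of all arms left out together (-0.44, adjusted p = 0.271). ATF3 was not called at 10 µM (-0.58 ± 0.33 SE, adjusted p = 0.228), with a call without vehicle replicate 1 (-0.96, adjusted p = 0.000249).

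HuCCT1 10 µM replicate 3 stood apart from the other two libraries of its arm for several of these genes. DDIT3 was at 39.5, 31.2 and 95.7 CPM in replicates 1, 2 and 3, and PPP1R15A at 359, 367 and 696 CPM. SESN2 was at 41.9, 39.9 and 80.0 CPM. In each case replicate 3 was the highest of the 12 HuCCT1 libraries. The TRIB3 value in replicate 3 was also the highest of its line, and the ATF5 value the lowest. With that library, the log2 change at 10 µM was 0.36 ± 0.36 SE for DDIT3, 0.25 ± 0.23 SE for PPP1R15A and -0.14 ± 0.26 SE for SESN2, none called. Without it the changes were -0.29, -0.13 and -0.54 (adjusted p of 0.392, 0.606 and 0.0837). Between the doses, 1 of the 10 was higher at 10 µM than at 1.25 µM and 2 lower, where 14.4% of all genes were higher and 13.7% lower. TRIB3 was 1.52-fold higher (log2 change 0.60 ± 0.18 SE, adjusted p = 0.0213), which without replicate 3 was no longer called (0.30, adjusted p = 0.108), nor without 1.25 µM replicate 1 (0.58, adjusted p = 0.0674) or 2 (0.57, adjusted p = 0.077). ATF5 was 1.59-fold lower (log2 change -0.66 ± 0.15 SE, adjusted p = 0.00326), also called without replicate 3 (log2 change -0.48, adjusted p = 0.00401). DDIT4 was 1.37-fold lower (log2 change -0.45 ± 0.15 SE, adjusted p = 0.0304), a call lost without any 1 of the 6 libraries other than 10 µM replicate 3 (log2 changes of -0.38 to -0.47, adjusted p of 0.056 to 0.122) and with libraries scaled by size alone (-0.28, adjusted p = 0.185). Without replicate 3, ATF4 (-0.43, adjusted p = 0.0382) and PPP1R15A (-0.60, adjusted p = 0.0177) were called lower at 10 µM.

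**Figure D3:**
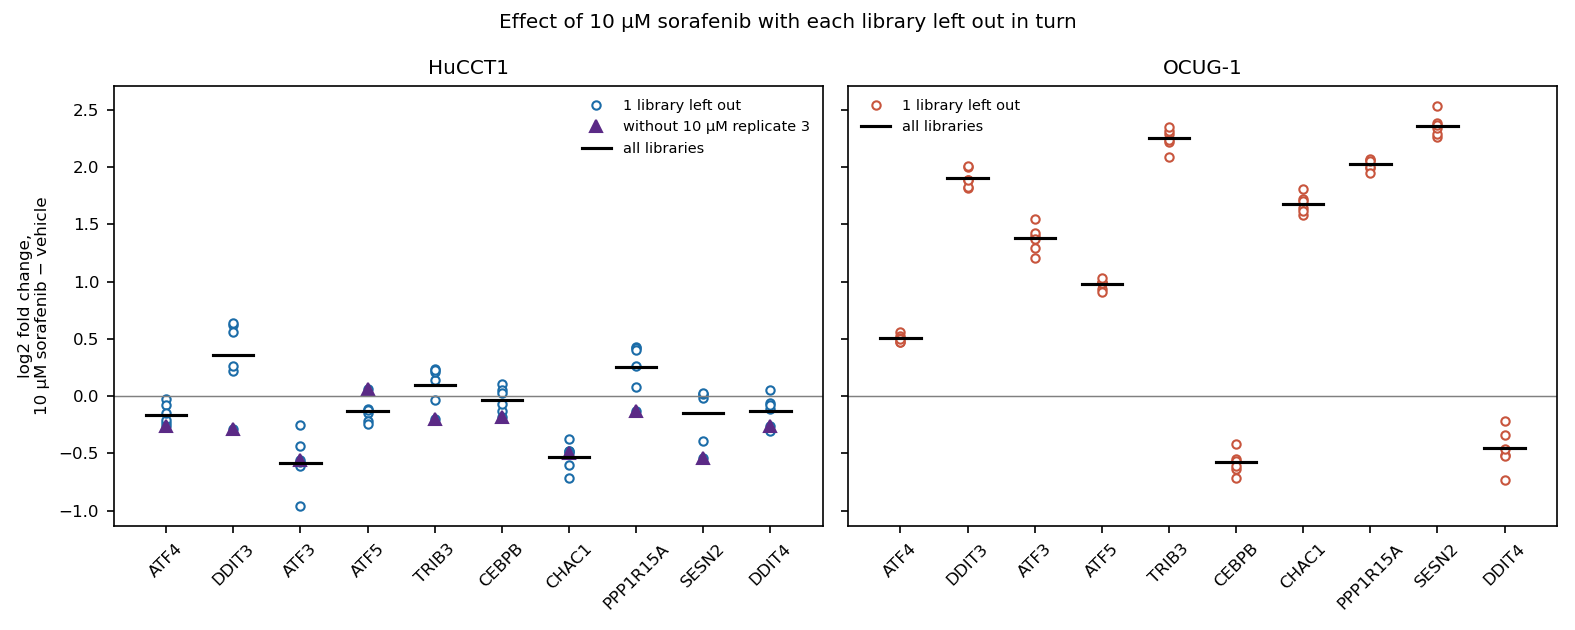
Log2 fold change of each gene at 10 µM sorafenib against vehicle with all libraries (black line) and with each of the 6 libraries left out in turn (open circles). In HuCCT1 leaving out 10 µM replicate 3 (triangles) moves DDIT3 from 0.36 to -0.29 and SESN2 from -0.14 to -0.54, while in OCUG-1 the 8 genes that rose stay above 0.

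With the combination part of the set fell in HuCCT1. Against 1.25 µM sorafenib 3 of 10 fell and 0 rose, where 5.06% of all genes rose and 6.57% fell, and the median log2 change was -0.53 over the 10 genes and 0.00165 over all genes. Against vehicle 4 fell and 0 rose, where 9.94% of all genes rose and 10.1% fell, with medians of -0.35 and -0.00121. CHAC1 fell most, and in the combination it was 2.67-fold lower (log2 change -1.42 ± 0.15 SE, adjusted p = 1.56e-05) against 1.25 µM sorafenib and 3.04-fold lower (log2 change -1.60 ± 0.15 SE, adjusted p = 3.67e-06) against vehicle. ATF4 stood at 722, 949 and 753 CPM with vehicle, 1024, 948 and 752 with 1.25 µM sorafenib, 644, 709 and 816 with 10 µM sorafenib and 618, 576 and 586 with the combination. The 3 combination libraries were the lowest of the 12. ATF4 was 1.53-fold lower (log2 change -0.62 ± 0.14 SE, adjusted p = 0.00917) against 1.25 µM sorafenib, a call lost without 1.25 µM replicate 1 (-0.51, adjusted p = 0.0514). Against vehicle it was 1.36-fold lower (log2 change -0.44 ± 0.14 SE, adjusted p = 0.03), and leaving out vehicle replicate 2 or any 1 of the combination libraries ended that call (adjusted p of 0.0746 to 0.137, log2 changes of -0.31 to -0.46).

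ATF3 in HuCCT1 stood at 38.5, 135 and 113 CPM with vehicle, 124, 126 and 113 with 1.25 µM sorafenib, 66.7, 63.0 and 61.4 with 10 µM sorafenib and 55.3, 41.1 and 52.7 with the combination. The combination libraries were below all libraries with 1.25 µM, and vehicle replicate 1 was the lowest of the 12. ATF3 was 2.43-fold lower (log2 change -1.28 ± 0.33 SE, adjusted p = 0.0298) in the combination against 1.25 µM sorafenib, a call lost on leaving out any 1 of the 6 libraries (log2 changes of -1.16 to -1.35, adjusted p of 0.0622 to 0.113). Against vehicle its change of -0.94 ± 0.33 SE was not called (adjusted p = 0.0679), and without vehicle replicate 1 it was (-1.32, adjusted p = 2.09e-05). TRIB3 was 1.75-fold lower (log2 change -0.80 ± 0.18 SE, adjusted p = 0.0058) in the combination against vehicle. SESN2 stood at 37.7, 71.6 and 69.5 CPM with vehicle, 39.3, 35.2 and 37.3 with 1.25 µM sorafenib, 41.9, 39.9 and 80.0 with 10 µM sorafenib and 23.4, 26.5 and 22.7 with the combination. Its combination libraries were the lowest of the line. SESN2 was 2.46-fold lower (log2 change -1.30 ± 0.27 SE, adjusted p = 0.00503) against vehicle. With replicate 3 of all arms left out together it was not called (-1.11, adjusted p = 0.0863). DDIT3, CEBPB, PPP1R15A, DDIT4 and ATF5 were not called in either comparison of the combination in HuCCT1. Of these, DDIT3 had a log2 change of -0.24 ± 0.36 SE and PPP1R15A of -0.62 ± 0.23 SE against 1.25 µM sorafenib (adjusted p of 0.719 and 0.0984).

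The responses of the lines were then compared directly, as OCUG-1 minus HuCCT1 in a fit of all 24 libraries. At 10 µM sorafenib the response differed for 9 of 10 genes, being higher in OCUG-1 for 8 and lower for CEBPB, where 20.7% of all genes had a higher and 23.1% a lower response. For the addition of IACS-010759 to 1.25 µM sorafenib it was higher for 8 and lower for DDIT4, where 18.6% of all genes were higher and 20.2% lower. SESN2 and CHAC1 had the widest gaps, of 3.22 ± 0.32 SE (adjusted p = 5.92e-08) and 3.18 ± 0.20 SE (adjusted p = 1.4e-12) on the log2 scale for the added IACS-010759. At 10 µM they were 2.44 ± 0.32 SE (adjusted p = 1.57e-06) and 2.14 ± 0.20 SE (adjusted p = 7.54e-10). For DDIT3 the gap was 1.48 ± 0.43 SE at 10 µM (adjusted p = 0.00893) and 2.15 ± 0.43 SE with IACS-010759 (adjusted p = 0.000637). MARS1, which overlaps DDIT3 on the opposite strand, had gaps of 0.81 ± 0.15 SE (adjusted p = 6.2e-05) and 1.02 ± 0.15 SE (adjusted p = 2.95e-06). Its part in the DDIT3 gaps was not tested. Without HuCCT1 10 µM replicate 3 the DDIT3 gap at 10 µM was 2.12 ± 0.27 SE (adjusted p = 8.58e-07). The 7 other genes with a higher response at 10 µM were also called without that library, and CEBPB was not (-0.47, adjusted p = 0.0819). For ATF4 the gap was 0.60 ± 0.18 SE at 10 µM (adjusted p = 0.00811) and 1.10 ± 0.18 SE with IACS-010759 (adjusted p = 1.51e-05). At 1.25 µM alone the lines differed for 2 genes, 1 higher and 1 lower in OCUG-1, where 4.96% of all genes had a higher and 4.69% a lower response. TRIB3 was the higher one (1.19 ± 0.23 SE, adjusted p = 0.00155). ATF5 was the lower one (-0.59 ± 0.19 SE, adjusted p = 0.0398). That call was lost on leaving out any 1 of 11 of the 12 libraries, HuCCT1 1.25 µM replicate 3 being the exception. NUP62, which overlaps ATF5 on the opposite strand, also had a lower response in OCUG-1 at 1.25 µM (-0.68 ± 0.13 SE, adjusted p = 0.00102). Its response was higher for the added IACS-010759 (0.62 ± 0.13 SE, adjusted p = 0.000278) and not called at 10 µM (-0.22 ± 0.13 SE, adjusted p = 0.175). The part of NUP62 in the ATF5 gaps was not tested. ATF3 was not called at 1.25 µM, but without HuCCT1 vehicle replicate 1 it was (1.00 ± 0.22 SE, adjusted p = 0.00571).

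**Figure D4:**
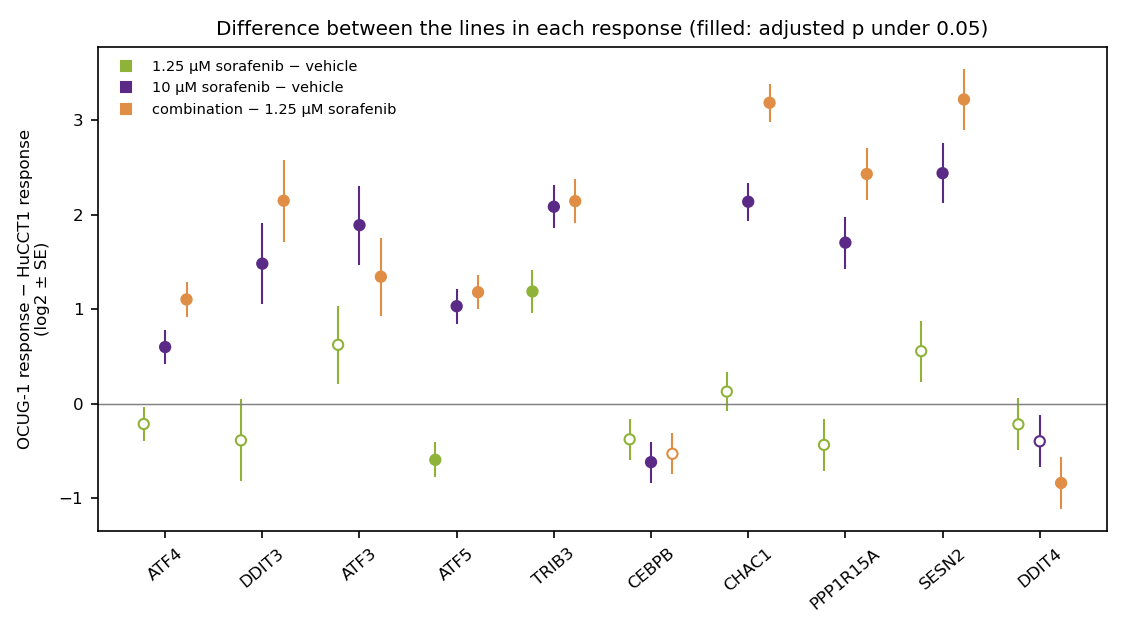
Difference between the lines in the response to each treatment (y axis, OCUG-1 minus HuCCT1, log2 ± SE), with filled points for an adjusted p under 0.05. The points for 10 µM sorafenib and for the added IACS-010759 lie above 0 for 8 of 10 genes and below 0 for CEBPB and DDIT4.

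Other genes of the pathway were counted in 5 lists, with the genes of smallest adjusted p as examples on the log2 scale. They are read against the shares of all genes given for each comparison, though the lists were chosen with earlier results of these data known. In OCUG-1 at 10 µM sorafenib, 17 rose and 0 fell of 17 ATF4 targets for amino acid synthesis and transport, with a median log2 change of 1.23. The examples were SLC3A2 (heavy chain of amino acid transporters, 2.75 ± 0.12 SE) and SLC7A5 (its leucine-transporting partner LAT1, 2.25 ± 0.10 SE). Of 13 tRNA synthetases and export factors 11 rose and 0 fell (median 0.93), with GARS1 (glycyl-tRNA synthetase, 1.81 ± 0.10 SE) and TARS1 (threonyl-tRNA synthetase, 1.76 ± 0.12 SE). Of 14 other genes of the ATF4 and CHOP axis 9 rose and 4 fell (median 0.84), with STC2 (stanniocalcin 2, 2.59 ± 0.11 SE) and CEBPG (a bZIP partner of ATF4, 1.38 ± 0.12 SE). In the ATF6 and XBP1 arm of the ER unfolded protein response 16 rose and 0 fell of 16 genes (median 2.06), with HERPUD1 (a factor of ER-associated degradation, 3.63 ± 0.18 SE) and DNAJB11 (an ER chaperone, 2.08 ± 0.12 SE). Among 15 genes for eIF2, its kinases, its exchange factor eIF2B and the mitochondrial relay, 8 rose and 4 fell (median 0.37), with EIF2S1 (the alpha subunit of eIF2, 1.89 ± 0.15 SE) and EIF2B2 (a subunit of eIF2B, 1.62 ± 0.13 SE). At 1.25 µM, 5 rose and 1 fell of the 17 amino acid genes and 6 rose and 0 fell of the 16 ER genes, among them HSPA5 (the ER chaperone BiP, 0.80 ± 0.15 SE), while 0 rose and 0 fell of the 13 tRNA genes.

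The lists were also counted for IACS-010759 added to 1.25 µM sorafenib in OCUG-1. 16 of 17 amino acid genes rose and 0 fell (median 1.06), and 12 of 13 tRNA genes rose and 0 fell (median 0.80). Of the 14 other axis genes 9 rose and 3 fell (median 0.69), and of the 16 ER genes 13 rose and 0 fell (median 0.97). SLC7A5 changed by 2.61 ± 0.10 SE, STC2 by 2.55 ± 0.11 SE and HERPUD1 by 3.17 ± 0.18 SE. Among the eIF2 genes 10 rose and 5 fell. EIF2AK1, which encodes HRI, the kinase reached by the mitochondrial relay, was among those that fell (-0.99 ± 0.10 SE, adjusted p = 1.74e-07), and it fell likewise between 1.25 and 10 µM sorafenib (-1.05 ± 0.10 SE, adjusted p = 7.53e-08).

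In HuCCT1 the amino acid and tRNA lists had members that fell and none that rose in each comparison with vehicle. In the combination against vehicle, 0 rose and 11 fell of 16 tested amino acid genes (median -0.53) and 0 rose and 11 fell of 13 tRNA genes (median -0.63). SLC7A1, a cationic amino acid transporter, changed by -1.05 ± 0.11 SE, SLC7A5 by -0.99 ± 0.10 SE and XPOT, the tRNA exporter, by -0.85 ± 0.15 SE. At 1.25 µM 0 rose and 7 fell of the 16 amino acid genes (median -0.51) and 0 rose and 6 fell of the 13 tRNA genes (median -0.45). At 10 µM the counts were 0 up and 4 down of 16, and 0 up and 1 down of 13. For IACS-010759 added to 1.25 µM sorafenib, 0 rose and 5 fell of the 16 amino acid genes (median -0.0747). Of the 13 tRNA genes 0 rose and 1 fell (median -0.147). Between the doses, 6 of the 16 were higher and 2 lower at 10 µM, and 4 of the 13 higher and 0 lower. The ER genes had rises at 10 µM, where 3 rose and 0 fell of 16, among them MANF (0.85 ± 0.23 SE) and SDF2L1 (0.63 ± 0.20 SE), both secretory pathway stress genes. In the combination against vehicle 0 rose and 1 fell of the 16. Of the 12 tested other axis genes, 0 rose and 4 fell in the combination against vehicle, with JDP2 (a bZIP repressor) at -1.04 ± 0.12 SE and CEBPG at -0.69 ± 0.14 SE. Among the eIF2 genes 0 rose and 3 fell of 15, and the largest change among the examples was that of EIF2AK2, which encodes PKR (-1.20 ± 0.14 SE, adjusted p = 2.53e-05). Direct tests of the difference between the lines at 10 µM gave a higher response in OCUG-1 for 14 of 17 amino acid genes, 9 of 13 tRNA genes and 14 of 16 ER genes, and a lower one for 0 in each of these lists. Of the 14 other axis genes the response was higher in OCUG-1 for 6 and lower for 3, with STC2 at 2.90 ± 0.17 SE and KLHL24 at -1.58 ± 0.20 SE (adjusted p = 3.03e-07). Of the 15 eIF2 genes it was higher for 8 and lower for 4, with EIF2B2 at 1.60 ± 0.18 SE and EIF2AK1 at -1.14 ± 0.13 SE (adjusted p = 5.75e-08).

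**Figure D5:**
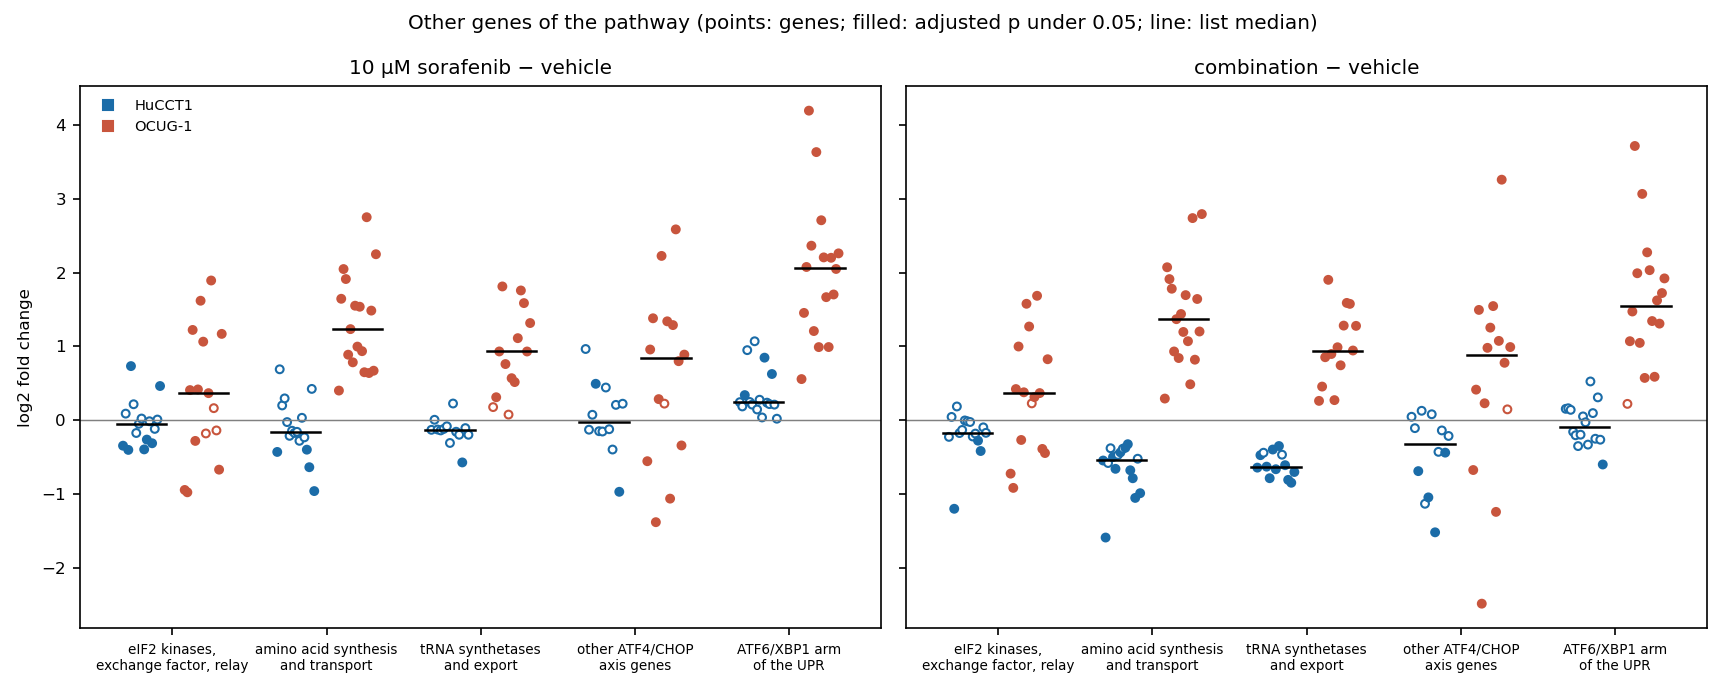
Log2 fold change of each gene in 5 pathway lists at 10 µM sorafenib (left) and in the combination (right), both against vehicle, with filled points for an adjusted p under 0.05 and lines for list medians. At 10 µM the OCUG-1 medians run from 0.37 to 2.06, and in the combination the HuCCT1 medians all lie below 0.

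Across the 8 groups the order of levels differed from gene to gene. For ATF4 the 4 HuCCT1 groups held the top 4 places, from 908 ± 140.3 CPM (SD, n = 3) with 1.25 µM sorafenib to 593 ± 22.1 with the combination, and all were above every OCUG-1 group. The ranges of the first 3 HuCCT1 groups overlapped from one to the next. For DDIT3 the order began with OCUG-1 at 10 µM (133 ± 18.0 CPM) and OCUG-1 with the combination (106 ± 2.38 CPM), whose ranges did not overlap. Next came, with overlapping ranges, HuCCT1 at 10 µM, with vehicle and at 1.25 µM, then OCUG-1 with vehicle and HuCCT1 with the combination. Last was OCUG-1 at 1.25 µM (28.2 ± 5.24 CPM). So the line with less ATF4 mRNA in every arm had more DDIT3 mRNA in the 10 µM and combination arms. MARS1, which overlaps DDIT3, had a mean of 108 CPM in OCUG-1 against 237 in HuCCT1 at 10 µM. In the combination it was 143 against 185 CPM. CHAC1 was lower in the highest OCUG-1 group (28.5 ± 1.73 CPM) than in HuCCT1 with vehicle (58.0 ± 14.2 CPM).

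As a description over the 12 libraries of a line, which share group, depth and scaling, the protein-coding genes whose log2 CPM was most like that of ATF4 were IFRD1 (Pearson r = 0.984), REXO1 (r = 0.975) and STRN4 (r = 0.962) in OCUG-1. In HuCCT1 they were TIMM44 (r = 0.950), MPHOSPH10 (r = 0.935) and RBCK1 (r = 0.911). For DDIT3 they were DCUN1D3 (r = 0.993), MBD1 (r = 0.992) and NUPR1 (r = 0.990) in OCUG-1, and ZCCHC7 (r = 0.927), GADD45B (r = 0.910) and TMEM39A (r = 0.907) in HuCCT1, with 0 genes shared between the lines in either trio. Without HuCCT1 10 µM replicate 3, a check added after seeing the data, r with DDIT3 was 0.772 for ZCCHC7, 0.725 for GADD45B and 0.683 for TMEM39A over the other 11 libraries, so these values rest in part on that library. The r values with ATF4 in HuCCT1 were then 0.950, 0.940 and 0.917.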

How the data were processed

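RNA was sequenced from 24 libraries as paired reads of poly(A) RNA. The submitters' processing notes name the build GRCh38 and the tools fastp 1.3.2 (a read trimmer), HISAT2 2.2.2 (an aligner) and featureCounts from Subread 2.1.1 (a read counter), without their settings. Annotation release and strand option: not given in the sources used here. The deposited values are whole-number read counts per Ensembl gene ID as made by the authors, 1 table per line. Extra runs were made for 4 OCUG-1 libraries, which the labels do not name.

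Each line was fitted on its 12 libraries, and contrasts between lines on all 24, with edgeR 4.0.16 (R 4.3.3): TMM scaling, filterByExpr with a minimum count of 10, a robust quasi-likelihood F test, and Benjamini-Hochberg adjustment over all genes tested (19576 in HuCCT1, 20511 in OCUG-1, 22944 together). The SE of a log2 change is its size divided by the square root of F. The script was tested on simulated data. Lengths are GENCODE v29 union exons. Alternatives were DESeq2 1.42.0, library size alone, no low-count filter, a replicate block, mitochondrial genes left out of the scaling, only the groups compared, each library left out, and replicate 3 of all HuCCT1 arms left out together. The 10 genes and the pathway and marker lists were chosen with earlier results of these data known. All 10 genes are named, with up to 2 called genes of smallest adjusted p per list and comparison, and the 3 genes most correlated with ATF4 and DDIT3 (mean of at least 10 CPM). The genes named for their overlap were chosen outside that rule.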

Additional observations from a re-analysis of the deposited data

Results flagged for a closer look

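These results drew attention because the response of a gene to the same treatment differed between the lines in edgeR's test of that difference (OCUG-1 minus HuCCT1, log2 scale, adjusted p under 0.05 over all genes). For 10 µM sorafenib against vehicle the differences were 0.60 for ATF4, 1.48 for DDIT3, 1.89 for ATF3, 1.03 for ATF5, 2.08 for TRIB3, -0.62 for CEBPB, 2.14 for CHAC1, 1.70 for PPP1R15A and 2.44 for SESN2. For IACS-010759 added to 1.25 µM sorafenib they were 1.10 for ATF4, 2.15 for DDIT3, 1.34 for ATF3, 1.18 for ATF5, 2.14 for TRIB3, 3.18 for CHAC1, 2.43 for PPP1R15A, 3.22 for SESN2 and -0.84 for DDIT4. For 1.25 µM sorafenib against vehicle they were -0.59 for ATF5 and 1.19 for TRIB3. NUP62, which overlaps ATF5 on the opposite strand, differed by -0.68 for 1.25 µM sorafenib and 0.62 for the added IACS-010759. MARS1, which overlaps DDIT3 likewise, differed by 0.81 for 10 µM sorafenib and 1.02 for the added IACS-010759. Their parts in the ATF5 and DDIT3 differences were not tested. CEBPB at 10 µM was no longer called without HuCCT1 vehicle replicate 1, HuCCT1 10 µM replicate 3, OCUG-1 vehicle replicate 1 or OCUG-1 10 µM replicate 2 (differences of -0.44 to -0.57), nor with replicate 3 of all HuCCT1 arms left out together (-0.43, adjusted p = 0.116). The DDIT3 difference at 10 µM was 2.12 without HuCCT1 10 µM replicate 3. DDIT4 with the added IACS-010759 was not called without OCUG-1 1.25 µM replicate 2 (-0.74, adjusted p = 0.0515). ATF3 with the added IACS-010759 was not called with replicate 3 of all HuCCT1 arms left out together (1.43, adjusted p = 0.0519).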

How the results depend on the processing

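Of the recomputed log2 changes of single genes, 1799 kept their side of the threshold, 64 lost and 47 gained a call, and no called change turned direction. The number of the 10 genes called moved most in HuCCT1. At 1.25 µM it was 1, and 3 with DESeq2, 2 with libraries scaled by size alone, 2 without the low-count filter, 2 with only the groups compared and 3 with replicate 3 of all arms left out. For the combination against 1.25 µM it was 3, and 5 with DESeq2 and 7 with only the groups compared. Between the doses it was 3, and 5 with replicate 3 left out. For the line difference at 1.25 µM it was 2, and 1 with size alone and 1 without the filter. With the replicate number as a block, HuCCT1 at 1.25 µM gave 2 called genes where there was 1. Under the block, TRIB3 there (-0.49, adjusted p = 0.0277), ATF5 for the HuCCT1 combination against 1.25 µM (-0.45, adjusted p = 0.0305) and CHAC1 between the HuCCT1 doses (-0.34, adjusted p = 0.0474) gained a call, and ATF3 for the HuCCT1 combination against 1.25 µM (-1.27, adjusted p = 0.074) and DDIT4 between the OCUG-1 doses (-0.54, adjusted p = 0.0576) lost one. The labels do not say whether replicate numbers pair libraries of different arms. Deviations of same-numbered pairs correlated at a median of 0.0505 in HuCCT1 (-0.131 to 0.396) and -0.0295 in OCUG-1 (-0.196 to 0.244). In HuCCT1 6 and in OCUG-1 3 of 12 libraries correlated best with their own number. Leaving out 1 library gave 0 to 2 genes for HuCCT1 at 1.25 µM, 0 to 2 at 10 µM, 1 to 2 for the combination against 1.25 µM, 3 to 5 against vehicle and 1 to 4 between doses. In OCUG-1, in the same order, it gave 2 to 3, 9 to 10, 8 to 9, 10 to 10 and 7 to 9. Between the lines it gave 4 to 5 with vehicle, and 1 to 2, 8 to 10 and 8 to 10 for the differences in response to 1.25 µM, 10 µM and added IACS-010759. Scaling by size alone moved the share of calls that were higher, over all genes, from 54 to 26.7% for HuCCT1 at 1.25 µM, from 43.5 to 82.4% for its combination against 1.25 µM, from 51.2 to 77.5% between its doses and from 56.2 to 28.8% for OCUG-1 at 1.25 µM. Over all genes, the counts of calls that moved by over 1.5 times are given next. HuCCT1 1.25 µM versus vehicle had 3616, against 1710 to 2361 with 1 library left out. With HuCCT1 replicate 3 of every arm left out together it had 5956. HuCCT1 combination versus 1.25 µM had 2276, against 877 to 1097 with 1 library left out and 3474 with only the groups compared. With HuCCT1 replicate 3 of every arm left out together it had 5853. HuCCT1 combination versus vehicle had 3931, against 2342 to 2603 with 1 library left out. HuCCT1 10 µM versus 1.25 µM had 5518, against 3472 to 3567 with 1 library left out. OCUG-1 1.25 µM versus vehicle had 2160, against 653 to 1082 with 1 library left out. The line difference in 1.25 µM versus vehicle had 2214. Leaving out 1 library lowered that count to between 1209 and 1472 for some libraries and raised it to 3385 for another. The causes were not tested.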
